A study of Rattus norvegicus with 48 samples.

Results

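Type I interferon-stimulated genes were followed in 48 RNA-seq libraries from cortical cells of fetal rats in culture. The cultures had received the HIV-1 protein Tat, cocaine or 1 of 4 small molecules, alone or in combination, or none of these. The genes were chosen by symbol, from a list of 39 that was drawn up with earlier results of these data known. Of the 39, Oas1b was not a row of the analysed table, Oas3 averaged 0.233 CPM (the depth-scaled read count of a gene) and Ifit1 averaged 0.0101 CPM over the 48 libraries. The 36 genes that averaged at least 0.5 CPM are described here, among 30211 genes in the table and 15890 genes tested.

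Type I interferons bind a receptor of the subunits Ifnar1 and Ifnar2, whose kinases Jak1 and Tyk2 act on transcription factors. A complex that holds Stat2 and Irf9 then binds the interferon-stimulated response element, a short DNA motif, before a common set of antiviral genes. In brain cultures, neurons, astrocytes and microglia can all carry this program, and microglia are among the cells known for a strong one.

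The cultures came from cortex of 18-day Sprague-Dawley fetuses, the shared source of every group. There were 16 groups of 3 libraries, replicates 1, 2 and 3. Recombinant Tat (residues 1 to 86) was given at 6 ng/mL for 48 h and cocaine at 25 µM for 24 h. The paper describes cocaine as added after the 48 h of Tat, so Tat-Cocaine may differ from Tat also in time since Tat. How long the compounds were given is not stated here. The compounds were 4OI (4-octyl itaconate, a cell-permeable itaconate ester) at 250 µM, Amlexanox (an inhibitor of the kinases TBK1 and IKKε) at 25 µM, Tazemetostat (an inhibitor of the histone methyltransferase EZH2) at 3 µM and Senicapoc (a blocker of a calcium-activated potassium channel) at 1 µM. The groups were Control, Cocaine, Tat and Tat-Cocaine, each compound alone, Tat with each compound, and Tat-Cocaine with each compound. Each compound was used at 1 dose, so the compounds are not compared at matched doses. The labels do not say whether the 3 replicates of a group were separate cultures, so every p-value measures only the spread between these libraries, which may be technical.

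The libraries held 17.5 to 29.1 M reads on genes, at which 0.5 CPM corresponded to 8.58 to 14.96 reads. The labels call the cells neurons, but markers of neurons, astrocytes, microglia and oligodendrocytes were all present, so the libraries are of mixed cultures. The 12 microglial markers summed to 605 to 5539 CPM per library with none at 0 in the groups named below, and the 5 T and NK lymphocyte markers were at or near 0. In such bulk samples, fewer cells of a type and less RNA per cell cannot be told apart. Replicate 2 had the highest microglial marker sum in 15 of 16 groups.

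Promoter sequence was at hand for 27 of the 36 genes, from RefSeq on the build GRCr8, as windows from 250 bases before the transcription start to 50 bases after it. No entry was matched for Ddx58, Dhx58, Ifit2, Isg15, Mx2, Oas2, Rtp4, Usp18 and Zbp1. The core of the interferon-stimulated response element, GAAANNGAA on either strand, stood in 18 of the 27 windows (66.7%) and in 3251 of all 33469 windows (9.71%). The interferon-gamma activated site, TTCNNNGAA, reads the same on both strands and stood in 6 of 27 windows (22.2%) against 8.87% of all windows. Irf1 and Irf9, both transcription factors of the pathway, held only the second motif of this pair. A match describes these letters only. The stretches below, each 45 bases upstream of the start and written 5′ to 3′ on the gene's own strand, are shown because these 7 genes span the responses described later. Capitals mark GAAANNGAA on either strand, and overlapping matches run together.
Irf7: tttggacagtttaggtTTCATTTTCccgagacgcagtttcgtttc
Ifit3: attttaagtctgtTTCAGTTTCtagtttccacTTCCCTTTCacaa
Oas1a: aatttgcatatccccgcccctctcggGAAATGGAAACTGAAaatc
Gbp5: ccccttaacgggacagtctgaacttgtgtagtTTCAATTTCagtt
Bst2: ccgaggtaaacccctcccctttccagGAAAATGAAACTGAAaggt
Rsad2: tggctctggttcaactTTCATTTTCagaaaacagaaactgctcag
Cmpk2: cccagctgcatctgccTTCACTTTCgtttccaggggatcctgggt
The Irf7 stretch lies at chr1:205800063-205800107 on the minus strand and the Ifit3 stretch at chr1:241527270-241527314 on the plus strand. Oas1a was read from chr12:41330399-41330443 on the plus strand, and Gbp5 from chr2:233910912-233910956 on the plus strand. Bst2 was read from chr16:18255080-18255124 on the minus strand, Rsad2 from chr6:48788238-48788282 on the minus strand, and Cmpk2 from chr6:48802743-48802787 on the plus strand. The matches of Ifit3 start 43 and 24 bases before the transcription start, and both Oas1a and Bst2 hold a pair of overlapping matches.

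**Figure D1:**
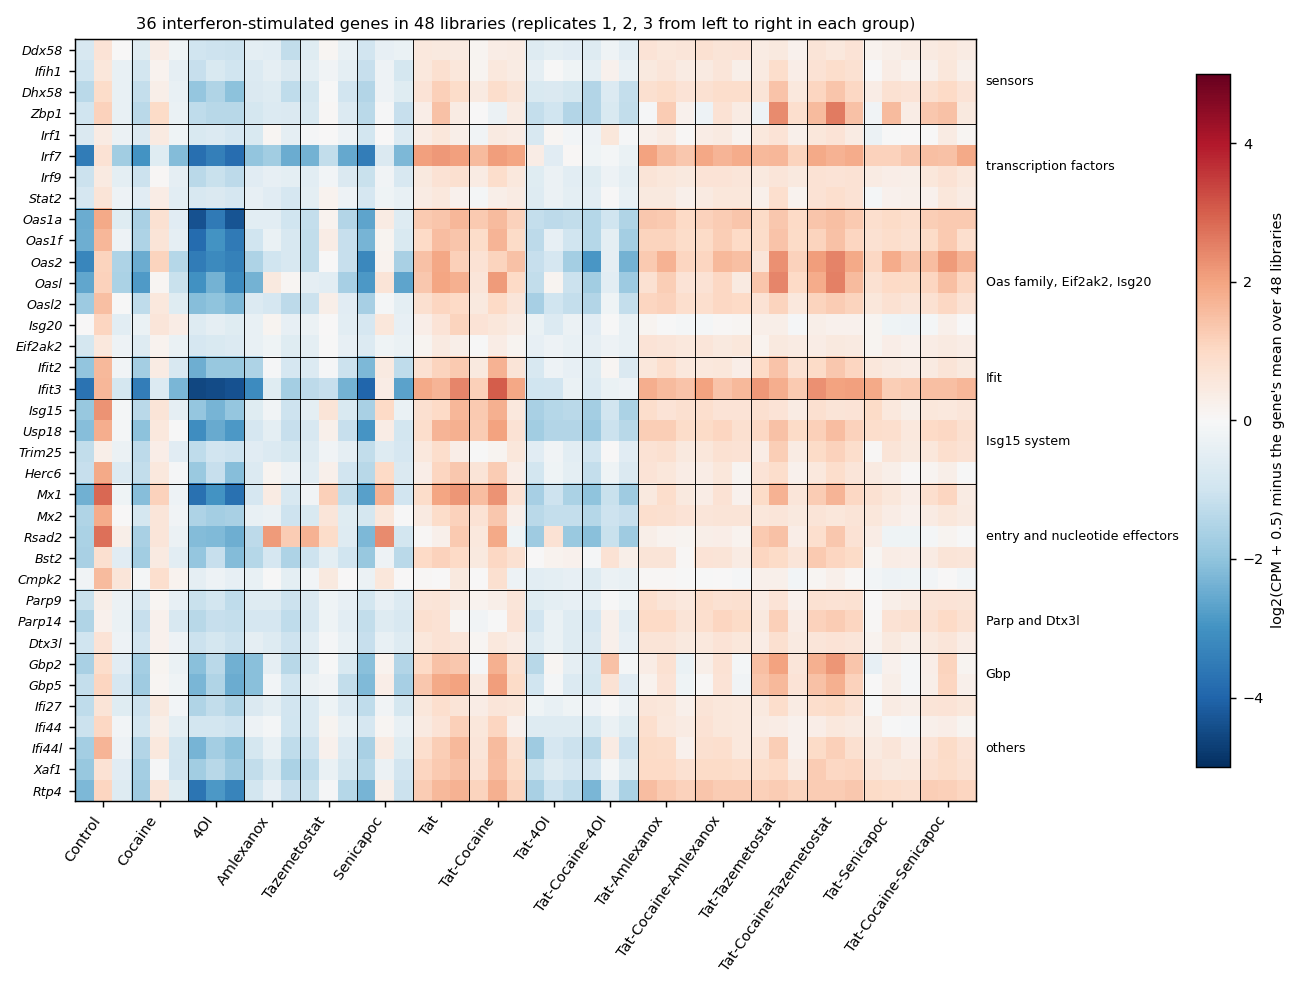
Each row is 1 of 36 interferon-stimulated genes, ordered by role, and each column is 1 of 48 libraries in 16 groups, with replicates 1, 2 and 3 side by side. Colour gives log2(CPM + 0.5) minus the gene's own mean over the 48 libraries, from blue (lower) to red (higher), and the 4OI columns are the bluest while the middle Control column is red in nearly every row.

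The first thing to read in these genes is the spread among the 3 Control libraries. Control replicate 2 was the highest of the 3 for 36 of 36 genes, and Control replicate 1 was the lowest for 35 of 36, Isg20 being the exception. Mx1, a dynamin-like GTPase that blocks incoming viruses, stood at 12.5, 502 and 59.9 CPM in Control replicates 1, 2 and 3. Irf7, the transcription factor that amplifies interferon production, stood at 7.3, 143 and 25.9 CPM. Isg15, a ubiquitin-like protein attached to other proteins during the response, stood at 6.56, 124 and 24.6 CPM. For each of these 3 genes replicate 3 lay between the other libraries and far from both. On the CPM + 0.5 scale the highest Control library exceeded the lowest by a median of 5.49-fold over the 36 genes and by up to 41.1-fold, while the median over all tested genes was 1.28-fold.

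In the other groups without Tat, replicate 2 was mostly the highest as well, while the full Control order held in some groups only. Replicate 2 was the highest for 36 of 36 genes in Cocaine, 35 in Senicapoc, 34 in Tazemetostat and 29 in Amlexanox, where 28.8% to 42.2% of all tested genes were highest in replicate 2. The full order, replicate 1 below replicate 3 below replicate 2, was seen in 36 of 36 genes in Cocaine and 35 of 36 in both Control and Senicapoc, but in 18 in Tazemetostat, 13 in 4OI and 12 in Amlexanox. The SD of log2(CPM + 0.5) over 3 libraries had a median over the genes of 1.24 in Control and 0.90 in Cocaine, 0.27 in Tat and 0.17 in 4OI, against 0.12 to 0.25 in these groups over all tested genes. The 12 microglial markers summed to 1596, 2849 and 1701 CPM in Control replicates 1, 2 and 3, a 1.79-fold difference between replicates 1 and 2, and to 1300, 4245 and 2918 CPM in Cocaine. The part of these markers in the spread was not tested.

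**Figure D2:**
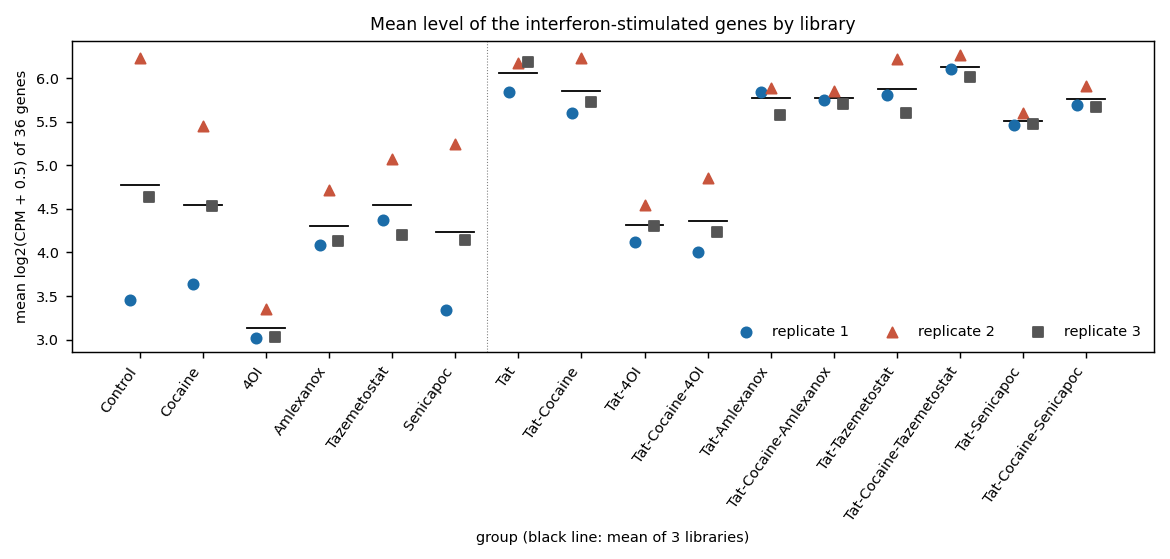
The vertical axis is the mean log2(CPM + 0.5) of the 36 genes in 1 library, and the horizontal axis lists the 16 groups, those without Tat left of the dotted line. Symbols mark the replicate number and black lines the mean of 3 libraries. Control runs from 3.46 in replicate 1 to 6.23 in replicate 2, the 3 Tat libraries sit between 5.84 and 6.18, and the 3 libraries with 4OI alone sit between 3.02 and 3.35.

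Tat vs Control asks what Tat alone does to the program. With limma on log2(CPM + 0.5), 19 of 36 genes were higher in Tat and none was lower at a false discovery rate (FDR, Benjamini-Hochberg over all 15890 genes) under 0.05, where 14.6% of all tested genes were called higher. The median log2 fold change over the 36 genes was 1.07, against 0.01 over all tested genes. The genes called were 4 of the 7 in the Oas, Eif2ak2 and Isg20 group, all 3 of Parp9, Parp14 and Dtx3l, both guanylate-binding proteins, 2 of 4 nucleic acid sensors, 2 of 4 transcription factors, 1 of 2 Ifit genes, 1 of 4 genes of the Isg15 system, 1 of 5 entry and nucleotide effectors, and 3 of the 5 others.

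Irf7 changed most. It was at 363, 391 and 360 CPM in the Tat libraries against 7.3, 143 and 25.9 CPM in Control, and the groups did not overlap. Its log2 fold change was 3.59 ± 0.59 (SE, limma, n = 3 per group, FDR = 2.86e-05). This SE, like those below, rests on a spread pooled over the 16 groups. For the 36 genes the median SD was 0.56 when pooled and 1.24 over the Control libraries. Irf9, the DNA-binding partner of Stat2, was at 73.4, 85.5 and 91.8 CPM in Tat and 24.6, 70.2 and 36.5 CPM in Control. By limma this was a log2 fold change of 1.05 ± 0.23, with every Tat library above every Control library.

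Ifit3, which belongs to a family of proteins that bind viral RNA, was at 69.3, 59.6 and 101 CPM with Tat and 0.92, 57.9 and 9.49 CPM in Control. The Tat libraries were all higher, although the lowest of them was close to Control replicate 2, and the log2 fold change was 3.00 ± 0.83 (limma FDR = 0.00798). Ifit2, of the same family, ran from 50.2 to 73.7 CPM in Tat and from 7.02 to 91.6 CPM in Control, so its groups overlapped and it did not pass the test.

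The oligoadenylate synthetases make the messenger that switches on RNase L, which cuts RNA. Oas2 was at 18.7, 25.8 and 15.2 CPM in Tat and 0.23, 14.6 and 1.91 CPM in Control, a log2 fold change of 2.74 ± 0.76 (limma FDR = 0.00874). Oasl, a relative of these enzymes, was at 20.03, 31.2 and 27.1 CPM with Tat and 0.844, 17.3 and 2.18 CPM in Control, a log2 fold change of 2.71 ± 0.78 (limma FDR = 0.0108). Neither gene overlapped between the groups. Oas1a, at 37.7, 39.7 and 48.8 CPM in Tat, was above Control replicates 1 and 3 (2.24 and 9.71 CPM) but below Control replicate 2 (56.9 CPM), and its log2 fold change was 1.85 ± 0.62 (limma FDR = 0.0291). Oas1f had the same shape, with 26.7, 38.4 and 34.8 CPM in Tat, 1.99, 42.1 and 10.8 CPM in Control, and a log2 fold change of 1.66 ± 0.59 (limma FDR = 0.0431). The Oas1 genes are close copies, so reads shared between them make their separate values uncertain.

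Gbp5 and Gbp2 are guanylate-binding GTPases that act on vesicles holding pathogens and respond to interferon gamma as well. Gbp5 was at 211, 308 and 329 CPM in Tat and 35.7, 175 and 46.2 CPM in Control, with a log2 fold change of 2.06 ± 0.57 (limma FDR = 0.0087). Gbp2 was at 503, 704 and 634 CPM in Tat and 81.9, 468 and 170 CPM in Control, with a log2 fold change of 1.70 ± 0.60 (limma FDR = 0.0394). Both were higher in every Tat library than in any Control library.

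Rtp4, a chaperone of receptor proteins, was at 66.8, 86.4 and 93.2 CPM in Tat and 5.52, 59.3 and 17.4 CPM in Control, a log2 fold change of 2.14 ± 0.54 (limma FDR = 0.00422). Xaf1, which opposes the apoptosis inhibitor XIAP, was at 57.8, 69.2 and 76.2 CPM against 6.98, 45.4 and 18.4 CPM, a log2 fold change of 1.86 ± 0.38 (limma FDR = 0.000491). Both separated the groups fully. In all, 12 of the 36 genes were higher in every Tat library than in any Control library, as were 19.4% of all tested genes.

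Several of the best known interferon-stimulated genes did not pass the test, and in the 3 given here Control replicate 2 was above all Tat libraries. Isg15 was at 45.4, 52.4 and 83.7 CPM in Tat, all below the 124 CPM of Control replicate 2 (log2 fold change 1.07 ± 0.58, limma FDR = 0.183). Mx2, the second dynamin-like GTPase, was at 189, 267 and 313 CPM in Tat and 48.7, 511 and 141 CPM in Control (0.72 ± 0.45, limma FDR = 0.248). Ddx58, which encodes the RNA sensor RIG-I, was at 46.4, 44.5 and 43.2 CPM in Tat and 18.2, 51.0 and 32 CPM in Control (0.52 ± 0.23, limma FDR = 0.0974). By contrast Parp14, a mono-ADP-ribosyltransferase, passed with 134, 128 and 82.5 CPM in Tat and 27.1, 89.9 and 61.0 CPM in Control (1.07 ± 0.32, limma FDR = 0.0155). Cmpk2, a nucleotide kinase, was the 1 gene with a negative value (-0.47), at 57.3, 55.2 and 77.5 CPM in Tat and 48.5, 164 and 82.9 CPM in Control.

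The count for Tat vs Control rests on the Control libraries. It was 33 without Control replicate 2, 4 without Control replicate 1 (3 higher and 1 lower) and 9 without Tat replicate 2. In a fit to the 6 libraries of Control and Tat alone it was 0. That fit takes its error from these libraries alone and has fewer of them: the members' median SD was 1.24 over the Control libraries and 0.56 pooled over the 16 groups. Between libraries of the same replicate number, the median difference over the 36 genes was 2.15 on the log2 scale for replicate 1 (36 of 36 above 0), 0.04 for replicate 2 (19 above and 17 below) and 1.41 for replicate 3 (35 above). The shares of all tested genes above 0 are not given here. The numbers did not pair these libraries: same-numbered deviations from the group means correlated at -0.10, 0.30 and -0.57. Each difference thus sets single, unmatched libraries against each other.

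The same comparison could be made in 4 other backgrounds that share no library with Tat or Control. With Amlexanox present, 26 of 36 genes were higher with Tat and none was lower (limma FDR under 0.05, where 22.6% of all tested genes were higher), with a median log2 fold change of 1.39. With Tazemetostat the counts were 21 higher and 0 lower (10.4% of all tested genes higher, median 1.18). With Senicapoc they were also 21 higher and 0 lower (10.8% of all tested genes higher, median 1.14). With 4OI they were 8 higher and 0 lower (3.08% of all tested genes higher, median 0.82), and 30 of the 36 genes were higher in every Tat-4OI library than in any 4OI library, as were 15.7% of all tested genes. Leaving out single libraries moved the Tazemetostat count to 6 (without Tat-Tazemetostat replicate 2), 12 (without Tazemetostat replicate 3) or 13 (without Tazemetostat replicate 1), and the Senicapoc count to 5 (without Senicapoc replicate 1), 12 (without Tat-Senicapoc replicate 2) or 13 (without Tat-Senicapoc replicate 3). The 4OI count fell to 4 without 4OI replicate 1 or without Tat-4OI replicate 2, and to 5 without replicate 3 of either group.

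Bst2, Ifi27, Ifit3, Irf7, Irf9, Oas1a, Oas1f and Rtp4 were called higher with Tat in all 5 backgrounds. Irf7 was at 278 CPM on average with Tat and Amlexanox and 20.9 CPM with Amlexanox alone (log2 fold change 3.71 ± 0.59, limma FDR = 3.23e-05), and its log2 fold changes with Tazemetostat (3.52), Senicapoc (3.37) and 4OI (3.61) were of like size. Ifit3 rose by 3.43, 3.37, 3.57 and 3.68 on the log2 scale in Amlexanox, Tazemetostat, Senicapoc and 4OI. Bst2, the tetherin that holds budding virus at the cell surface, rose by 1.73, 1.73, 1.42 and 1.88 in the same order. Oas2 rose by 2.49 with Amlexanox and 3.00 with Senicapoc, and Oasl by 2.48 with Tazemetostat. Cmpk2, Herc6, Irf1, Isg15, Isg20, Mx1, Rsad2 and Zbp1 were called in none of the 5. Of these, Herc6 is a ligase for Isg15 in rodents, Rsad2 encodes viperin and Zbp1 senses Z-form nucleic acid.

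**Figure D3:**
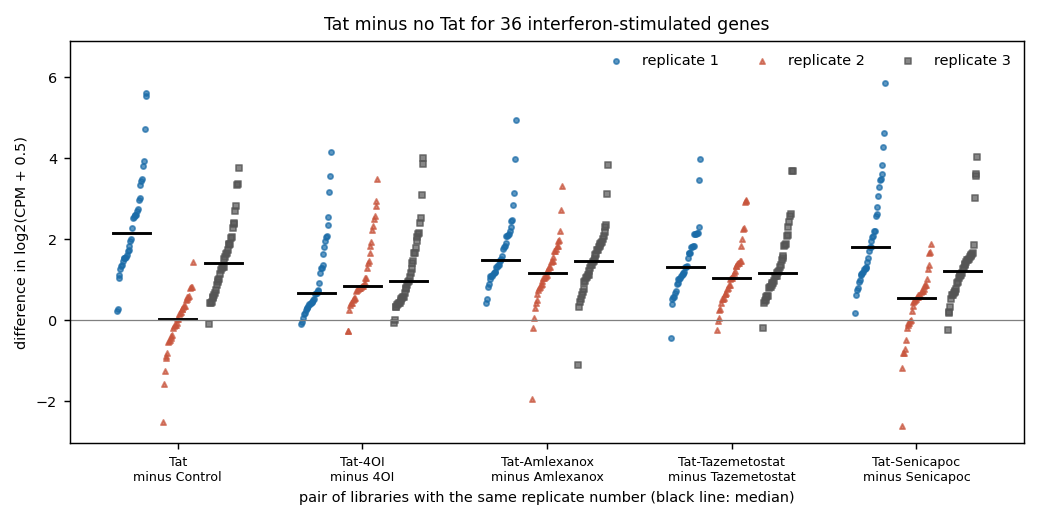
Each point is 1 of 36 genes, its height the log2(CPM + 0.5) of a Tat library minus that of the library without Tat with the same replicate number, in 5 backgrounds along the horizontal axis. Black lines are medians. The median for Tat minus Control is 2.15, 0.04 and 1.41 in replicates 1, 2 and 3, and the medians of the other 4 backgrounds run from 0.54 to 1.82. Replicate numbers paired all 3 libraries (correlation of deviations over 0.1) only in the Amlexanox background.

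Averaged over the 5 backgrounds, 33 of 36 genes were higher with Tat and none lower (limma FDR under 0.05, where 29.9% of all tested genes were higher), with a median log2 fold change of 1.14. The 3 that did not pass were Isg20, an RNA exonuclease, at 0.29, Rsad2 at 0.29 and Cmpk2 at -0.11. Irf7 averaged 3.56 ± 0.26 (limma FDR = 2.87e-13), Ifit3 3.41 ± 0.37 (limma FDR = 2.08e-09) and Oas2 2.50 ± 0.34 (limma FDR = 2.21e-07). All 4 sensors, all 4 transcription factors and all 4 genes of the Isg15 system passed, as did 6 of 7 genes of the Oas, Eif2ak2 and Isg20 group and 3 of 5 entry and nucleotide effectors. The count ran from 33 to 34 when single libraries were left out and was 34 without replicate 2 of every group. Microglial markers moved too: 6 of 12 were higher with Tat and 1 lower on average over the backgrounds, with a median log2 fold change of 0.46, and 6 of 8 neuronal markers were lower. Of 8 astrocyte markers, 2 were higher and 4 lower. The share of all tested genes lower is not given here. The part of these markers in the higher interferon-stimulated genes was not tested.

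Whether Tat acted differently with a compound was tested as the difference of 2 differences. No member passed for 4OI (0.497% of all tested genes called, 0 members at an unadjusted limma p under 0.05), Amlexanox (1.84% called, 2 members unadjusted), Tazemetostat (0% called, 0 unadjusted) or Senicapoc (0% called, 0 unadjusted). The 95% intervals of these differences had a median half-width of 1.31 on the log2 scale. Without Control replicate 1 the Amlexanox test called 4 members.

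**Figure D4:**
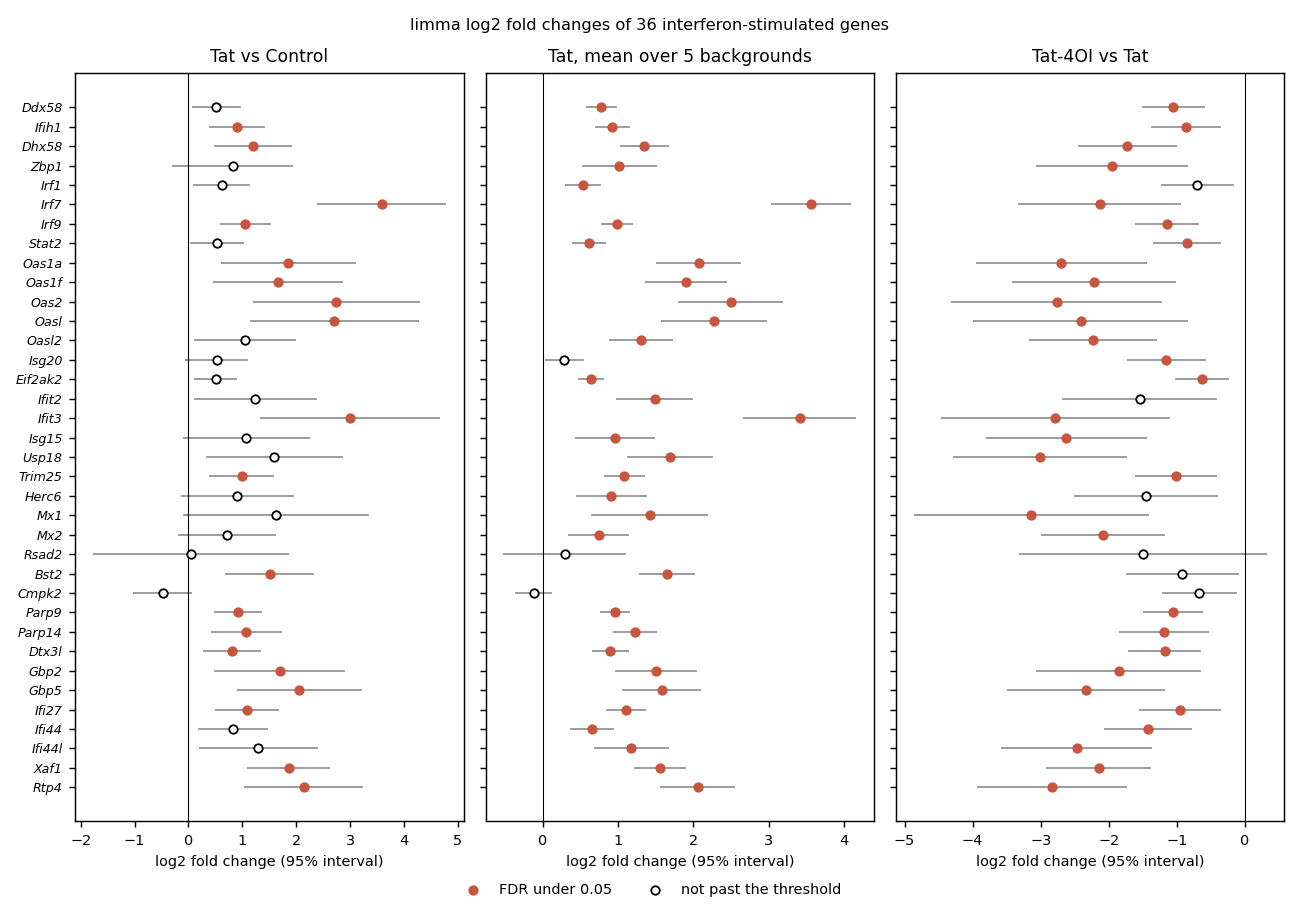
Points are limma log2 fold changes and bars their 95% intervals for 36 genes in 3 comparisons, filled where the FDR is under 0.05. For Tat vs Control 19 genes are filled and all lie right of 0, for the mean over 5 backgrounds 33 are filled, and for Tat-4OI vs Tat 30 are filled and all 36 lie left of 0.

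With cocaine alone, or cocaine beside Tat, no member passed the test. For Cocaine vs Control the limma fit gave 0 calls (0 at an unadjusted p under 0.05, 0.201% of all tested genes called), the median log2 fold change was -0.16, and the 95% intervals had a median half-width of 0.93. Cocaine replicate 3 stood apart in its oligodendrocyte markers, which summed to 22950 CPM against 1504 and 1105 CPM in replicates 1 and 2, and neuronal markers summed to 3290, 1311 and 1152 CPM in replicates 1, 2 and 3. Without Cocaine replicate 3 the count was also 0. Tat-Cocaine vs Tat likewise had no member called (0 unadjusted, 0.0189% of all tested genes called), with a median of -0.19. These groups may differ in time since Tat as well as in cocaine. Averaged over the 5 backgrounds, cocaine added to Tat gave no call (1 member at an unadjusted limma p under 0.05, 4.55% of all tested genes called), a median of 0.05 and single values from -0.12 to 0.29.

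Tat-Cocaine vs Control, which shares the Control libraries with the comparison of Tat alone, had 10 genes higher and none lower (limma FDR under 0.05, where 8.63% of all tested genes were higher), with a median log2 fold change of 0.92. Irf7 was at 263, 368 and 345 CPM in Tat-Cocaine, above every Control library (3.38 ± 0.59, limma FDR = 0.00011). Ifit3 was at 41.5, 150 and 70.6 CPM and overlapped Control (3.03 ± 0.83, limma FDR = 0.0107), as did Oas2 at 10.9, 14.7 and 18.7 CPM (2.32 ± 0.76, limma FDR = 0.0354). The replicate number as a block was warranted for this pair of groups. It gave 18 members higher and none lower, where 11.1% of all tested genes were higher. The block was entered for all 16 groups, although the numbers paired all 3 libraries in only 27 of 120 pairs of groups. Dropping Control replicate 2 gave 32, dropping Control replicate 3 gave 6 and dropping Control replicate 1 gave 2, of which 1 was higher and 1 lower. Dropping Tat-Cocaine replicate 2 gave 4, and dropping Tat-Cocaine replicate 3 gave 5. It was 0 in a fit to these 6 libraries alone.

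The set was lower with 4OI, with and without Tat. In Tat-4OI vs Tat, 30 of 36 genes were lower and none higher (limma FDR under 0.05, where 9.48% of all tested genes were lower), with a median log2 fold change of -1.64. Every Tat-4OI library lay below every Tat library for 35 of the 36 genes and for 17.2% of all tested genes. All 4 sensors, all 7 genes of the Oas, Eif2ak2 and Isg20 group, Parp9, Parp14 and Dtx3l, both Gbp genes and all 5 of the others passed, as did 3 of 4 transcription factors. Rsad2, Ifit2, Herc6, Irf1, Bst2 and Cmpk2 did not. The count was 16 without Tat replicate 2.

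Mx1 was at 21.5, 33.1 and 22.6 CPM in Tat-4OI and 131, 274 and 321 CPM in Tat (log2 fold change -3.14 ± 0.85, limma FDR = 0.0111). Usp18, the protease that removes Isg15 and restrains the interferon receptor, was at 5.67, 6.88 and 7.05 CPM in Tat-4OI and 37.7, 66.6 and 69.2 CPM in Tat (-3.01 ± 0.63, limma FDR = 0.00108). Rtp4 was at 8.72, 13.3 and 11.2 CPM in Tat-4OI, below all 3 Tat libraries (-2.84 ± 0.54, limma FDR = 0.000427). None of these 3 genes overlapped between the groups. Irf7 fell by 2.13 on the log2 scale, to 113, 57.8 and 91.2 CPM, and so stayed above the 5.89, 7.74 and 5.82 CPM of 4OI alone. Isg15 was at 8.08, 9.30 and 9.93 CPM in Tat-4OI, not far above the 4.79 to 6.504 CPM of 4OI alone.

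In 4OI vs Control, 16 of 36 genes were lower and none higher (limma FDR under 0.05, where 0.686% of all tested genes were lower), all 36 had a negative value, and the median log2 fold change was -1.55. Oas1a was at 0.258, 0.819 and 0.271 CPM in 4OI, below every Control library (-3.68 ± 0.62, limma FDR = 0.000178). Mx1 was at 4.71, 8.24 and 4.71 CPM (-3.56 ± 0.85, limma FDR = 0.012) and Ifit3 at 0.295, 0.345 and 0.417 CPM (-3.46 ± 0.83, limma FDR = 0.0119), both below every Control library. The replicate number as a block was warranted for this pair of groups, though entered for all 16 groups. It gave 31 members lower and none higher, where 1.4% of all tested genes were lower. The count was 30 without Control replicate 1, 2 without Control replicate 2, and 6 without 4OI replicate 1 or 3, and it was 0 in a fit to the 6 libraries alone. Within replicate numbers the median difference was -0.29, -2.47 and -1.62 for numbers 1, 2 and 3.

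Tat-Cocaine-4OI vs Tat-Cocaine, which shares no library with Tat-4OI vs Tat or 4OI vs Control, had 16 genes lower and none higher (limma FDR under 0.05, where 3.29% of all tested genes were lower), with a median log2 fold change of -1.41. Mx1 was at 16.9, 31.2 and 19.8 CPM in Tat-Cocaine-4OI and 204, 333 and 113 CPM in Tat-Cocaine (-3.14 ± 0.85, limma FDR = 0.0189). Oas2 fell by 3.02 and Rtp4 by 2.84 on the log2 scale, and all 3 genes had separate groups. The count was 9 without Tat-Cocaine replicate 2 or Tat-Cocaine-4OI replicate 1, and 8 without Tat-Cocaine-4OI replicate 3. It was 32 with sample weights and 9 in a fit to these libraries alone. Ddx58, Dhx58, Irf7, Irf9, Isg15, Mx1, Mx2, Oas1a, Oas1f, Oasl2, Rtp4 and Usp18 were lower with 4OI in all 3 comparisons.

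Microglial markers were also lower beside some of these results. Their sum was 998 to 2309 CPM in 4OI and 1596 to 2849 CPM in Control, ranges that overlapped, and none of 12 passed the test. It was 883 to 1946 CPM in Tat-4OI and 1995 to 3584 CPM in Tat, ranges that did not overlap, where 3 of 12 were lower with a median log2 fold change of -0.99. It was 605 to 1847 CPM in Tat-Cocaine-4OI and 1519 to 2525 CPM in Tat-Cocaine, where 4 of 12 were lower (median -0.85), 3 of 8 astrocyte markers were higher and 2 of 3 fibroblast markers were lower. Their part in the lower interferon-stimulated genes was not tested.

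**Figure D5:**
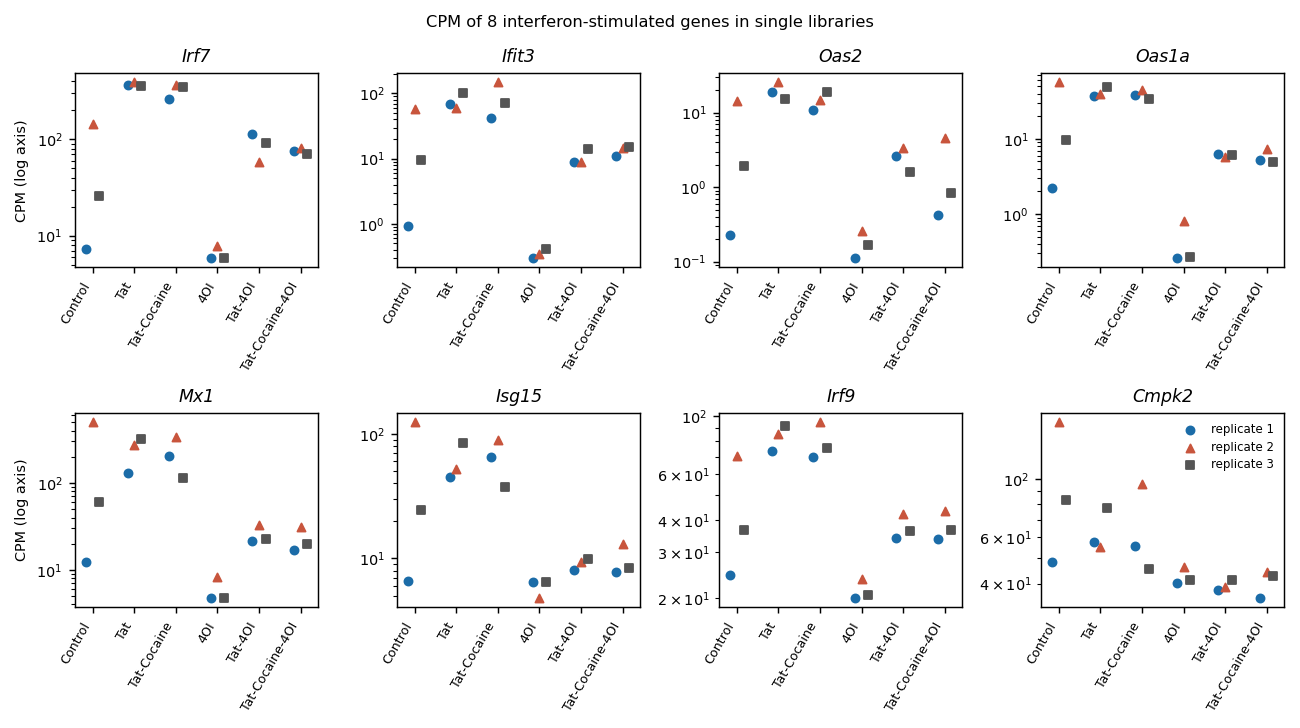
CPM on a log axis of 8 genes in the single libraries of 6 groups, with the replicate number as symbol. Irf7, Ifit3, Oas2, Oas1a, Mx1, Isg15 and Irf9 are lower in every Tat-4OI library than in any Tat library, while Control replicate 2 is the highest Control library in all 8.

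The other 3 compounds gave few calls, and every comparison with Control shares its 3 libraries with the others. In Amlexanox vs Control, Cmpk2 (log2 fold change -0.95 ± 0.27, limma FDR = 0.0186) and Ddx58 (-0.71 ± 0.23, limma FDR = 0.0389) were lower and none higher, where 7.6% of all tested genes were lower. Both overlapped Control. This count was 19 without Control replicate 1, and 0 without Control replicate 2, Control replicate 3 or Amlexanox replicate 3, and in a fit to these libraries alone. Tazemetostat vs Control (0 members at an unadjusted limma p under 0.05) and Senicapoc vs Control (3 unadjusted) had no member called, and 0% of all tested genes were called in either. The median log2 fold changes were -0.26 and -0.52. With sample weights 35 of the 36 genes were called in Senicapoc vs Control. The share of all tested genes called in that fit is not given here, so this count cannot be set against it.

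Added to Tat, Amlexanox (2 members at an unadjusted limma p under 0.05, 0.837% of all tested genes called), Tazemetostat (0 unadjusted, 0% called) and Senicapoc (4 unadjusted, 0.409% called) had no member called against Tat alone. With the replicate block, warranted for Tat-Amlexanox and Tat, 1 member was lower, where 1.74% of all tested genes were lower. Their median log2 fold changes were -0.22, -0.15 and -0.53, and for Senicapoc all 36 values were negative and the libraries of 23 genes lay wholly below those of Tat, as did those of 13.6% of all tested genes. Added to Tat-Cocaine, Amlexanox (3 unadjusted, 0.925% called) and Senicapoc (1 unadjusted, 0.0441% called) had none called. Tazemetostat added to Tat-Cocaine had Zbp1 (1.84 ± 0.55, limma FDR = 0.0169) and Parp14 (1.00 ± 0.32, limma FDR = 0.0235) higher and none lower, where 15.2% of all tested genes were higher. Neither overlapped between the groups, and dropping replicate 1 or 2 of Tat-Cocaine, or replicate 2 of Tat-Cocaine-Tazemetostat, gave 0, while dropping replicate 1 of the latter gave 1. In this comparison 7 of 12 microglial markers were higher, and 6 of 8 neuronal, 3 of 6 oligodendrocyte and 2 of 3 fibroblast markers were lower, and their part in these calls was not tested. The share of all tested genes lower in it is not given here.

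Set side by side under Tat, 4OI at 250 µM and Amlexanox at 25 µM differed: in Tat-4OI vs Tat-Amlexanox 22 of 36 genes were lower and none higher (limma FDR under 0.05, where 6.82% of all tested genes were lower), with a median of -1.22. Usp18 (-2.68 ± 0.63, limma FDR = 0.00454), Rtp4 (-2.64 ± 0.54, limma FDR = 0.00137) and Oas2 (-2.61 ± 0.76, limma FDR = 0.0208) had separate groups. The doses differ, so this sets 2 treatments and not 2 molecules against each other. The count was 14 without Tat-Amlexanox replicate 1.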

How the data were processed

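Poly(A) RNA of 48 libraries (16 groups of 3) was sequenced by the authors. Per the paper's methods and the submitters' processing notes, reads were trimmed with Trim Galore 0.4.5, aligned with STAR 2.7.2 and counted per gene with featureCounts (Subread 1.5.3), and scaled by TMM in edgeR. The methods name the build Rnor_6.0 and the notes mRatBN7.2 and hg38, so no coordinate of the table was used. The deposited values are thus a signal, CPM after the authors' scaling, which summed to 930399 to 1046892 per library. Only 84.8% to 86.8% of the values under 200 reads came out as whole reads (tolerance 0.02), so no count test was run. The authors' 180 columns of fold changes and p-values and their group means were not used.

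Genes at 0.5 CPM or more in 3 or more libraries were tested with limma 3.58.1 (R 4.3.3) on log2(CPM + 0.5), all 48 libraries and 16 group means in 1 fit with an eBayes trend, two-sided. A fold change on this scale understates the change of low genes. Counting error is not modelled, and 0.5 CPM was 8.58 to 14.96 reads. The test was also run on simulated data, but the outcome is not given here and does not vouch for the calls. Over the interferon-stimulated genes the median SD was 1.24 in Control, 0.27 in Tat and 0.17 in 4OI. The fit pools the spread over the 16 groups, and the test was not shown to hold under such unequal spread. No pair of libraries held identical values. The list of genes, its roles, the pathway and marker lists and the genes named (the 10 largest changes called in Tat vs Control, 1 gene for each role left without one, and the 3 largest calls elsewhere) were chosen with earlier results of these data known. The values of 1 gene of the pathway list are not reported here. Sequence stretches were picked after values were seen. Replicate numbers paired the libraries (every correlation of same-numbered deviations over 0.1) for Tat-Cocaine, 4OI, Tazemetostat or Senicapoc with Control, and for Tat-Amlexanox with Amlexanox or Tat.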

Additional observations from a re-analysis of the deposited data

How the results depend on the processing

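Counts are of the 36 genes called. Fitting only the libraries compared gave 0 calls for Tat vs Control, Tat-Cocaine vs Control, 4OI vs Control and Amlexanox vs Control, 23 for Tat-4OI vs 4OI, 11 for Tat-Senicapoc vs Senicapoc, 9 for both Tat-Cocaine-4OI and Tat-Cocaine-Tazemetostat vs Tat-Cocaine, and 1 for cocaine added to Tat. The wide Control spread and the fewer libraries are part of how that fit is made. Sample weights gave 11 (10 higher, 1 lower), 5, 36 and 5 calls for the same 4 comparisons with Control, 35 for Senicapoc vs Control, 24 for Tat-4OI vs 4OI, 32 for Tat-Senicapoc vs Senicapoc and for Tat-Cocaine-4OI vs Tat-Cocaine, 2 for Tat-Cocaine with Amlexanox or Senicapoc and 5 with Tazemetostat. The shares of all tested genes called in these weighted fits are not given here, and the cause of the moved counts was not tested. Without a filter on low values Amlexanox vs Control had 1 call. Pseudocounts of 0.1 and 1, at least 2 CPM in 3 libraries, quantile and median ratio scaling and no trend kept every count within 1.5 times.

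Replicate numbers paired all 3 libraries (correlation of deviations over 0.1) in 27 of 120 pairs of groups. The replicate block was entered for all 16 groups. It gave 18 calls for Tat-Cocaine vs Control (11.1% of all tested genes higher) and 31 for 4OI vs Control (1.4% lower). It gave 17 for Tat-4OI vs 4OI (5.19% higher), 1 for Tat-Amlexanox vs Tat (1.74% lower) and 2 for Tat-Senicapoc vs Tat (2.45% lower). It gave 29 for Tat-Cocaine-4OI vs Tat-Cocaine (5.11% lower) and 6 for Tat-Cocaine-Tazemetostat vs Tat-Cocaine (19.8% higher). It moved no other count by over 1.5 times.

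Leaving out single libraries gave 4 to 33 calls for Tat vs Control, 2 to 32 for Tat-Cocaine vs Control, 2 to 30 for 4OI vs Control, 0 to 19 for Amlexanox vs Control, 4 to 8 for Tat-4OI vs 4OI, 18 to 28 for Tat-Amlexanox vs Amlexanox, 6 to 23 for Tat-Tazemetostat vs Tazemetostat, 5 to 24 for Tat-Senicapoc vs Senicapoc, 16 to 30 for Tat-4OI vs Tat, 8 to 18 for Tat-Cocaine-4OI and 0 to 3 for Tat-Cocaine-Tazemetostat vs Tat-Cocaine, 14 to 21 for Tat-4OI vs Tat-Amlexanox and 0 to 4 for the Amlexanox difference of differences. Mx2 ran from -0.10 (without Control replicate 1, limma FDR = 0.901) to 1.59 (without Control replicate 2) in Tat vs Control. Leaving out replicate 2 of every group, chosen after seeing the data, gave 33 for Tat vs Control, 29 for Tat-Cocaine vs Control, 4 for 4OI vs Control, 0 for Amlexanox vs Control and 0 for Tat-Cocaine-Tazemetostat vs Tat-Cocaine.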

Other observations

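The genes before and beside this set in the pathway were also read. Of 12 interferon genes, among them Ifnb1 and 6 Ifna genes, 5 were at 0 in all 48 libraries and none exceeded 0.425 CPM in any, so the ligands themselves could not be tested. Ifnb1 had reads in 10 of 48 libraries, at up to 0.135 CPM, and Ifng in 28, at up to 0.425 CPM. Of 6 receptor genes, 5 were higher in Tat than in Control (limma FDR under 0.05, where 14.6% of all tested genes were higher). Ifnar1, a chain of the type I receptor, averaged 328 ± 75.9 CPM (SD, n = 3) in Tat and 215 ± 12.6 CPM in Control. Ifnar2 rose by 1.03 on the log2 scale. None of the 6 was called in Tat-4OI vs Tat, where the median was -0.43.

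Of 11 tested genes for the induction of interferon, 2 were higher and none lower in Tat vs Control. That is near the share of all tested genes higher, given above. In Tat-4OI vs Tat 5 of the 11 were lower and none higher. Ikbke, the kinase that joins Tbk1 in switching on interferon genes, was at 17.5 to 28.6 CPM in Tat, 5.10 to 7.17 CPM in Control and 3.05 to 5.65 CPM in Tat-4OI, and passed both tests (1.79 and -2.29). Tbk1 itself did not pass either (0.18 and 0.06).

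Among 33 further interferon-stimulated genes that could be tested, 19 were higher and none lower in Tat vs Control (14.6% of all tested genes higher), and 24 were lower and none higher in Tat-4OI vs Tat (9.48% of all tested genes lower). In 4OI vs Control only 3 of these genes were lower and none higher. Tat-Cocaine-4OI vs Tat-Cocaine had 8 of them lower and none higher. The shares of all tested genes lower in these 2 comparisons are given above. The chemokines Cxcl9 and Ccl5, which draw T cells, rose by 6.00 and 5.24 on the log2 scale with Tat and fell by 2.12 and 1.99 with 4OI added to it. Cxcl10, from the same class, spanned 6.98 to 183 CPM in Control and did not pass with Tat (0.77). Of the inhibitors, Socs3, a brake on cytokine receptors, rose by 2.11 with Tat and fell by 1.39 with 4OI added.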
